A study of Mus musculus with 4 samples.

Results

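Type 1 conventional dendritic cells were described in single-cell RNA libraries of mouse liver, as barcodes that carried the cell type's 2 surface receptor transcripts, Xcr1 and Clec9a. A barcode was kept when it had at least 300 detected genes, at least 500 unique molecular identifiers (UMIs, each counting 1 captured RNA molecule) and at most 30% mitochondrial UMIs. It was a member when Xcr1 and Clec9a together had at least 2 UMIs, Cd74 had at least 10, and the T cell gene Cd3e, the B cell gene Cd79a and the plasmacytoid dendritic cell gene Siglech had 0. Members were thus chosen by measured UMI counts of these genes. The rule found 431 members among 28199 kept barcodes, 121 of 8004 in the HCC library, 143 of 8477 in the high-AFP library, 99 of 5359 in the low-AFP library and 68 of 6359 in the control library.

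Each group was 1 library of liver cells from C57BL/6 mice, titled as 15 months and given as 17 months old in the age field. The HCC library was a cell suspension from the region of a hepatocellular carcinoma. The high-AFP library was titled as control diet although its deposited name carries the diet code CD-HFD. The low-AFP library was from CD-HFD mice, and the control library from mice on control diet. AFP is alpha-fetoprotein, a fetal liver protein that many liver tumours make. The last 3 libraries held the parenchymal and non-parenchymal fractions of the liver, from collagenase perfusion, with the non-parenchymal cells sorted as live and mixed in equal parts with Percoll-purified parenchymal cells. The labels used here do not say how many mice gave each library or which diet the HCC mice had. Without a second library in any group nothing could be tested between groups, and a library cannot be told apart from its group. Values below are given with exact 95% intervals that cover counting error only, not differences between mice. Intervals of gene levels count pooled UMIs and also leave out differences between the cells of a library. They are too narrow where few cells hold most UMIs of a gene.

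Type 1 conventional dendritic cells are the dendritic cell subset that depends on the transcription factors IRF8 and BATF3. They take up dead cells through the receptor CLEC9A, move towards lymphocytes that release the ligand of the chemokine receptor XCR1, and present the captured antigens on MHC class I to CD8 T cells, a process called cross-presentation. They also make interleukin 12 and the chemokine CXCL9, which attract and activate T cells and NK cells, and are therefore studied in liver tumours.

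The libraries held 65326793 UMIs in the HCC, 97393862 in the high-AFP, 80505127 in the low-AFP and 71957655 in the control library. Members had a median of 17237 UMIs in the HCC, 11995 in the high-AFP, 16471 in the low-AFP and 12858 in the control library. Between 3 and 29 kept barcodes were shared by each pair of libraries, and no member barcode was shared. The filter on mitochondrial UMIs removed 5.21% of the barcodes of the HCC, 16.1% of the high-AFP, 20.7% of the low-AFP and 23.7% of the control library.

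The label was checked against marker genes, and some members also carried macrophage transcripts. Of the members, 26 of 121 in the HCC, 63 of 143 in the high-AFP, 28 of 99 in the low-AFP and 11 of 68 in the control library held 5 or more UMIs of C1qa, C1qb and C1qc, the complement genes of Kupffer cells and other macrophages. Levels are given as CPM, the UMIs of a gene per 1000000 nuclear-encoded UMIs of the cells summed. The summed level of 8 macrophage markers other than the C1q genes in these C1q-high members was 11020 CPM in the HCC, 5655 in the high-AFP, 5525 in the low-AFP and 8694 in the control library. These members carried fewer of the receptor UMIs that chose them, with a median of 2 in the HCC, high-AFP and low-AFP libraries and 3 in the control library. Members with fewer than 5 C1q UMIs had a median of 8 in the HCC, 8.5 in the high-AFP, 13 in the low-AFP and 10 in the control library. Because they were not evenly spread over the libraries, results are given for all members and for the 303 members with fewer than 5 C1q UMIs, called C1q-low members. These were 95 in the HCC, 80 in the high-AFP, 71 in the low-AFP and 57 in the control library. This split was chosen after the data had been seen.

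**Figure D1:**
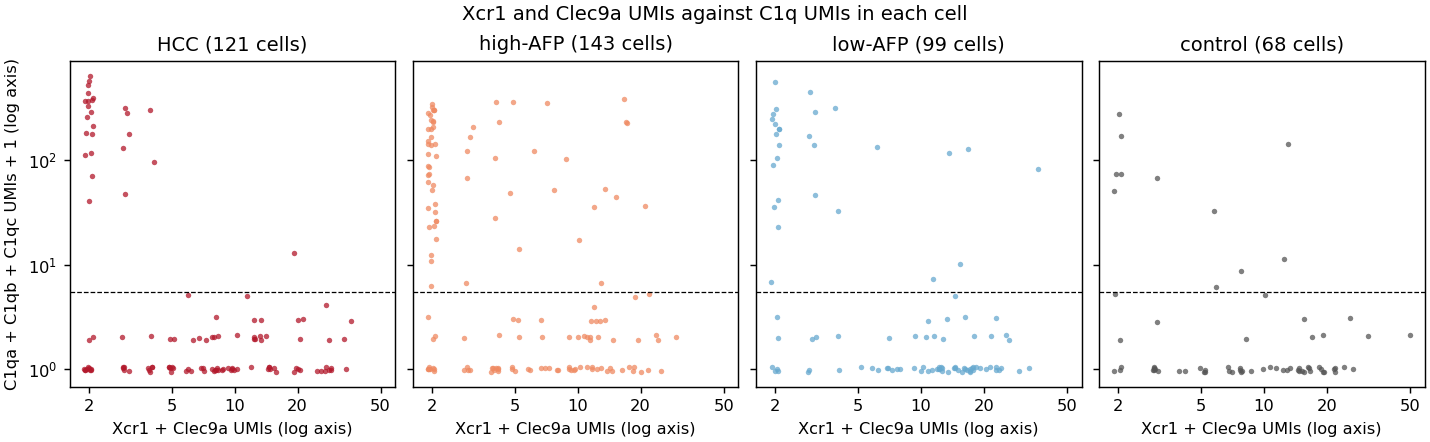
Each point is 1 member, with its summed Xcr1 and Clec9a UMIs on the horizontal log axis and its summed C1qa, C1qb and C1qc UMIs, with 1 added, on the vertical log axis, in 1 panel for each library; the dashed line marks 5 C1q UMIs and points are spread slightly to separate them. Of the members above the line, 18 of 26 in the HCC, 38 of 63 in the high-AFP, 15 of 28 in the low-AFP and 5 of 11 in the control library have 2 receptor UMIs, and the others spread to higher values.

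The threshold of 2 receptor UMIs cut through the overlap of the 2 kinds of barcode. Among members with exactly 2 receptor UMIs, 62.1% in the HCC, 77.6% in the high-AFP, 71.4% in the low-AFP and 5 of 10 in the control library had 5 or more C1q UMIs. Among members with 12 or more receptor UMIs, the same share was 2.86% in the HCC, 22.2% in the high-AFP, 8.70% in the low-AFP and 7.14% in the control library. Just outside the rule, barcodes with 1 receptor UMI that met all other criteria numbered 93 in the HCC, 179 in the high-AFP, 93 in the low-AFP and 46 in the control library. Of those, 47.3% in the HCC, 85.5% in the high-AFP, 86.0% in the low-AFP and 67.4% in the control library had 5 or more C1q UMIs. Scrublet, a doublet caller, marked 0 members at its automatic threshold. It marked 0 barcodes of the HCC, 4 of the high-AFP, 8 of the low-AFP and 12 of the control library and so had not worked. No doublets were removed. Ranked by its score instead, the highest 0.8% per 1000 kept barcodes held 0 of 26 C1q-high and 2 of 95 C1q-low members in the HCC library. It held 11 of 63 and 4 of 80 in the high-AFP library, 3 of 28 and 1 of 71 in the low-AFP library, and 2 of 11 and 5 of 57 in the control library.

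In the C1q-low members the type 1 programme was present in the 4 libraries, at sums under 2-fold apart. The summed level of 17 type 1 markers was 6693 CPM in the HCC, 7374 in the high-AFP, 6937 in the low-AFP and 7299 in the control library. The HCC interval, 6567 to 6820, lay below those of the high-AFP library, 7201 to 7549, and the control library, 7111 to 7490. A type 2 gate, meant for type 2 conventional dendritic cells, took barcodes with 2 or more UMIs of Cd209a in the same libraries. It had the same criteria on Cd74, Cd3e, Cd79a and Siglech and fewer than 2 receptor UMIs. Its sum of 10 type 2 markers, Cd209a among them, was 3111 to 3443 CPM, against 199 to 289 in C1q-low members. Its sum of 8 monocyte markers was 5134 CPM in the HCC, 3581 in the high-AFP, 4580 in the low-AFP and 5853 in the control library. C1q-low members had 1707, 1347, 1010 and 1385 CPM in that order, so the gate may hold monocyte-related cells. Its sum of the 17 type 1 markers was 691 CPM in the HCC, 723 in the high-AFP, 829 in the low-AFP and 747 in the control library. The 17 markers include Xcr1 and Clec9a, which both gates use, so part of this contrast follows from the gating. At least 3 of 6 markers outside the rule (Batf3, Wdfy4, Cadm1, Naaa, Tlr3 and Snx22) were detected in 92.6% of C1q-low members in the HCC, 93.8% in the high-AFP, 98.6% in the low-AFP and 93.0% in the control library. The sum of the 8 macrophage markers other than the C1q genes was 50.4 CPM in the HCC, 65.7 in the high-AFP, 58.5 in the low-AFP and 53.6 in the control C1q-low members.

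Irf8, the transcription factor that specifies the lineage, had 1819.8 CPM in the HCC, 1656 in the high-AFP, 1639 in the low-AFP and 1755 in the control C1q-low members. In the type 2 gate it had 90.5 CPM in the HCC, 54.0 in the high-AFP, 85.9 in the low-AFP and 39.3 in the control library. Batf3, its partner factor, had 223 CPM in the HCC, 240.4 in the high-AFP, 245 in the low-AFP and 176 in the control library. Wdfy4, which cross-presentation of cell-borne antigen requires, had 442 CPM in the HCC, 626 in the high-AFP, 546 in the low-AFP and 644 in the control library. The HCC interval of Wdfy4, 410.3 to 476 CPM, lay below those of the other libraries, a difference of under 2-fold. Tlr3, the sensor of double-stranded RNA that this subset carries, had 127 CPM in the HCC, 157 in the high-AFP, 166 in the low-AFP and 217 in the control library, against 5.09, 5.89, 14.3 and 6.55 CPM in their type 2 gates. The genes higher in C1q-low members than in the type 2 gate of every library, led by Irf8, P2ry14, Cd24a, Ppt1, Rab7b and Gcsam, and those lower, led by Clec10a, Mcemp1, Cybb, Cd72 and Ccl9, describe gates cut from the same RNA and were not tested.

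**Figure D2:**
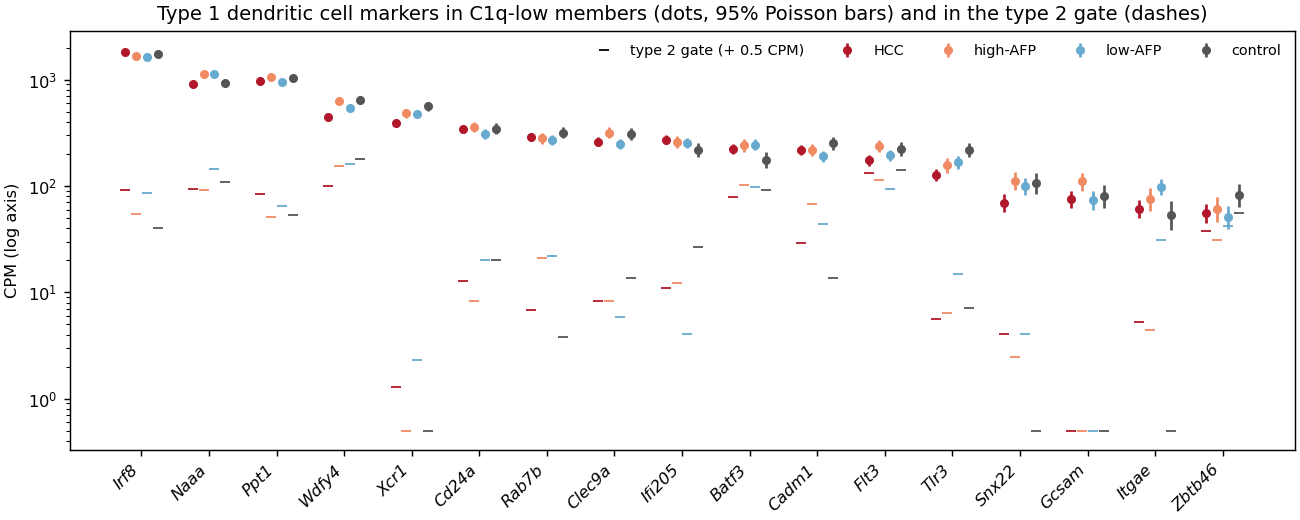
Level of 17 type 1 dendritic cell markers in CPM on a log axis, for C1q-low members of the HCC, high-AFP, low-AFP and control libraries (dots, with exact 95% Poisson intervals) and for the type 2 gate of the same libraries (dashes, with 0.5 CPM added). The dots of a gene lie close together across libraries, and for most genes the dashes lie far below them. Flt3, Zbtb46 and Batf3 are closer in both gates. Xcr1 and Clec9a, which both gates use, are among the 17.

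Both receptors that chose the cells are given as description. Xcr1 had 387 CPM in the HCC, 482 in the high-AFP, 478 in the low-AFP and 560.1 in the control C1q-low members. Clec9a had 260.0 CPM in the HCC, 318 in the high-AFP, 247 in the low-AFP and 307 in the control C1q-low members. Itgae, which encodes the integrin CD103 of tissue type 1 cells, had 60.9 CPM (49.5 to 74.3) in the HCC, 75.2 (58.7 to 94.9) in the high-AFP, 98.4 (81.9 to 117) in the low-AFP and 53.6 (38.6 to 72.4) in the control library. The low-AFP interval of Itgae lay above those of the HCC and control libraries, and the fold was under 2.

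Members made up 1.51% (1.26 to 1.80) of kept barcodes in the HCC, 1.69% (1.42 to 1.98) in the high-AFP, 1.85% (1.504 to 2.24) in the low-AFP and 1.07% (0.831 to 1.35) in the control library. C1q-low members made up 1.19% (0.961 to 1.45) in the HCC, 0.944% (0.749 to 1.17) in the high-AFP, 1.32% (1.04 to 1.67) in the low-AFP and 0.896% (0.680 to 1.16) in the control library. The intervals of the high-AFP and low-AFP members lay above that of the control library, and after C1q-high members were set aside the intervals of all libraries overlapped. With barcodes thinned to 2000 UMIs and shallower ones left out, 6896 in the HCC, 7260 in the high-AFP, 4705 in the low-AFP and 5505 in the control library remained. Among these, members were 0.624% (0.452 to 0.839) in the HCC, 0.716% (0.535 to 0.938) in the high-AFP, 0.595% (0.396 to 0.859) in the low-AFP and 0.618% (0.428 to 0.862) in the control library. At that depth all intervals overlapped, and the low-AFP share no longer exceeded that of control. These shares depend on how parenchymal and non-parenchymal cells were mixed and on the live sort, so shares within immune cells are given beside them. Of kept barcodes with a UMI of Ptprc, the pan-leukocyte gene, C1q-low members were 1.46% in the HCC, 2.47% in the high-AFP, 3.24% in the low-AFP and 3.504% in the control library. Of kept barcodes with 10 or more Cd74 UMIs and none of Cd3e, Cd79a or Siglech, C1q-low members were 6.22% (5.06 to 7.55) in the HCC, 4.56% (3.63 to 5.64) in the high-AFP, 6.91% (5.44 to 8.64) in the low-AFP and 11.9% (9.12 to 15.1) in the control library.

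At full depth the balance with the type 2 gate differed between the HCC and control libraries. Of members and type 2 gate barcodes together, members were 38.2% (32.8 to 43.8) in the HCC, 57.7% (51.2 to 63.9) in the high-AFP, 65.6% (57.4 to 73.1) in the low-AFP and 67.3% (57.3 to 76.3) in the control library. With C1q-low members alone the share was 32.6% (27.3 to 38.4) in the HCC, 43.2% (36.0 to 50.7) in the high-AFP, 57.7% (48.5 to 66.6) in the low-AFP and 63.3% (52.5 to 73.2) in the control library. The type 2 gate kept its C1q-carrying barcodes in that share. With the same limit of fewer than 5 C1q UMIs on both gates, it was 34.2% (28.6 to 40.1) in the HCC, 46.5% (38.9 to 54.3) in the high-AFP, 63.4% (53.8 to 72.3) in the low-AFP and 63.3% (52.5 to 73.2) in the control library. In these 3 versions, all at full depth, the HCC interval lay below those of the low-AFP and control libraries. With barcodes thinned to 2000 UMIs, members were 47.7% (52 of 109) in the high-AFP and 52.8% (28 of 53) in the low-AFP library, below their full-depth intervals. The HCC and control shares stayed within theirs. Intervals at that depth are not given, so a separation of HCC from low-AFP or from control is not shown there. The type 2 gate held 2.45% of kept barcodes in the HCC, 1.24% in the high-AFP, 0.970% in the low-AFP and 0.519% in the control library. Type 2 barcodes had a median of 13045.5 UMIs in the HCC, 8671 in the high-AFP, 11756 in the low-AFP and 8623 in the control library, and deeper barcodes meet a gate of 2 UMIs more often.

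**Figure D3:**
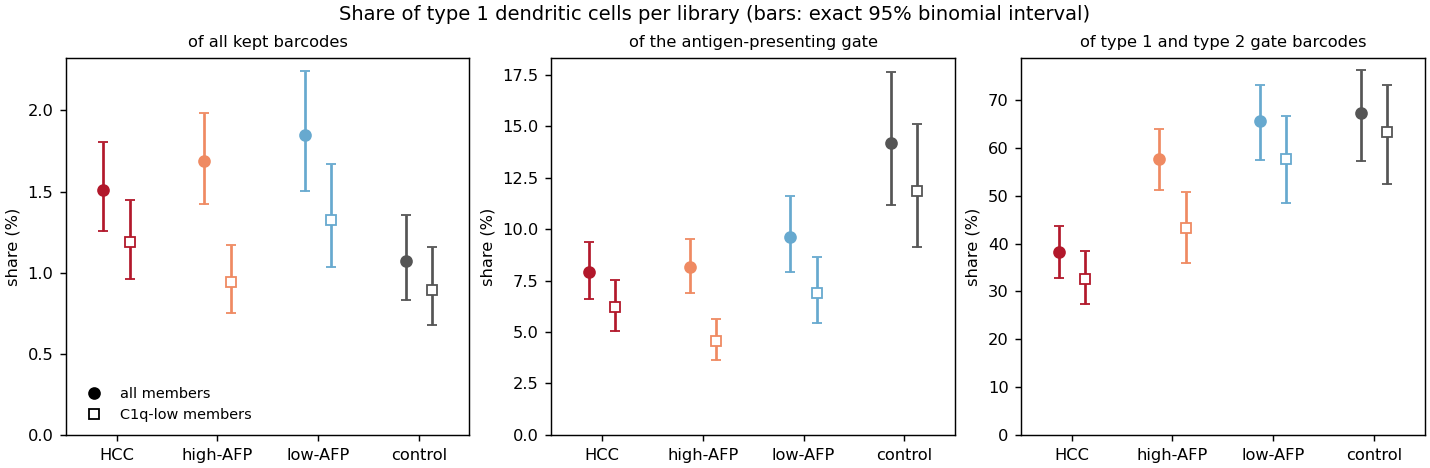
Share of type 1 dendritic cells in percent, of all kept barcodes (left), of kept barcodes with at least 10 Cd74 UMIs and no Cd3e, Cd79a or Siglech UMI (the antigen-presenting gate, middle) and of type 1 and type 2 gate barcodes together (right), for all members (filled circles) and C1q-low members (open squares) of the HCC, high-AFP, low-AFP and control libraries, with exact 95% binomial intervals. In the right panel the HCC library lies lowest, at 38.2% for all members against 67.3% in the control library.

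Genes were compared between libraries on the summed UMIs of the members, as the log2 fold of CPM with 10 CPM added, which understates the change of low genes. A gene counted as higher or lower when this fold was at least 2, among genes with a mean of at least 50 CPM over the 4 libraries and at least 20 UMIs. The comparisons with control share 1 control library. In all members 2847 genes qualified. Between HCC and control, 69 genes (2.42%) were higher and 118 (4.14%) lower. Between high-AFP and control, 109 (3.83%) were higher and 32 (1.12%) lower. Between low-AFP and control, 59 (2.07%) were higher and 40 (1.4%) lower. Between HCC and high-AFP, 25 (0.878%) were higher and 115 (4.04%) lower, and between high-AFP and low-AFP, 28 (0.983%) were higher and 21 (0.738%) lower. With 1 library a group these counts say how far apart the libraries lay, not that the conditions differ.

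In all members, the genes highest over control included macrophage genes. The 10 named as higher in high-AFP than in control members were Ctsd, C1qb, Fcgr1, C1qc, Wfdc17, C1qa, Gngt2, Fcgr4, Lst1 and Acp5. Ctsd, a lysosomal protease, had 660.0 CPM in the HCC, 850.2 in the high-AFP, 521 in the low-AFP and 132 in the control members. In C1q-low members it had 20.5 CPM in the HCC, 29.7 in the high-AFP, 36.7 in the low-AFP and 23.0 in the control library. Cd5l, a secreted protein of Kupffer cells, had 1401 CPM in the HCC, 1323 in the high-AFP, 551 in the low-AFP and 405 in the control members, and between 3.90 and 12.8 CPM in the C1q-low members of the 4 libraries. Of 15 measured lysosomal cathepsins, cystatin and related genes, 7 were at least 2-fold higher in high-AFP than in control members and 0 lower, with a median log2 fold of 0.86, against 0.01 over all 2847 genes. In C1q-low members 13 of these genes qualified, 0 were higher and 0 lower between the same libraries, and the median was -0.04. Of 9 receptors for dead cells and related sensors, 4 (Axl, Mertk, Itgb5 and Cd300a) were higher in high-AFP than in control members. In C1q-low members 3 of that list qualified and none was 2-fold apart. Between these libraries, 3.83% of all qualifying genes were higher and 1.12% lower in all members. In C1q-low members these shares were 0.565% and 1.17%. The C1q-high share was 21.5% of members in the HCC, 44.1% in the high-AFP, 28.3% in the low-AFP and 16.2% in the control library. The summed level of the 8 macrophage markers other than the C1q genes in all members was 2429 CPM in the HCC, 2722 in the high-AFP, 1485 in the low-AFP and 1192 in the control library. The part of the C1q-high members in these levels was not tested.

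In C1q-low members 2657 genes qualified. Between HCC and control, 26 genes (0.979%) were higher and 120 (4.52%) lower. Between high-AFP and control, 15 (0.565%) were higher and 31 (1.17%) lower. Between low-AFP and control, 48 (1.81%) were higher and 46 (1.73%) lower. Between HCC and high-AFP, 30 (1.13%) were higher and 110 (4.14%) lower, and between high-AFP and low-AFP, 10 (0.376%) were higher and 48 (1.81%) lower. Hepatocyte RNA in these cells differed between libraries: the sum of 9 hepatocyte markers in C1q-low members was 500.04 CPM in the HCC, 7295 in the high-AFP, 12597.5 in the low-AFP and 11011 in the control library. Named genes were restricted to those at least as high in members as in the other kept barcodes of the higher library, with no cell holding over 25% of its UMIs. Their intervals also had to be apart in the comparison that named them, so that separation is part of the choice and no added support. The naming rule left 14 higher and 7 lower between HCC and control, 5 and 14 between high-AFP and control, and 9 and 25 between low-AFP and control. It left 14 and 3 between HCC and high-AFP, and 1 and 1 between high-AFP and low-AFP.

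Genes of the core machinery of the lineage were not 2-fold apart, as was true of most genes. Of 11 qualifying transcription factors of dendritic cell development, 18 genes of cross-presentation and MHC class I loading and 12 genes of MHC class II presentation, none was 2-fold higher or lower in C1q-low members in any of the 5 comparisons. Over all 2657 qualifying genes, from 0.376% to 4.52% were called in each direction of a comparison. Lists this short could therefore hold none. Tap1, the peptide transporter, had 269 CPM in the HCC, 259 in the high-AFP, 235 in the low-AFP and 246 in the control library. Psmb8, an immunoproteasome subunit, had 1385 CPM in the HCC, 1289 in the high-AFP, 1189 in the low-AFP and 976 in the control library, where its interval, 908 to 1048, lay below the others. H2-Aa, an MHC class II chain, had 7562 CPM in the HCC, 7038 in the high-AFP, 6256 in the low-AFP and 7180.1 in the control library. Id2, which type 1 cells need to develop, had 1465 CPM in the HCC, 1804 in the high-AFP, 1821 in the low-AFP and 2076 in the control library. The HCC interval of Id2, 1407 to 1526, lay lowest, at a log2 fold under 1.

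**Figure D4:**
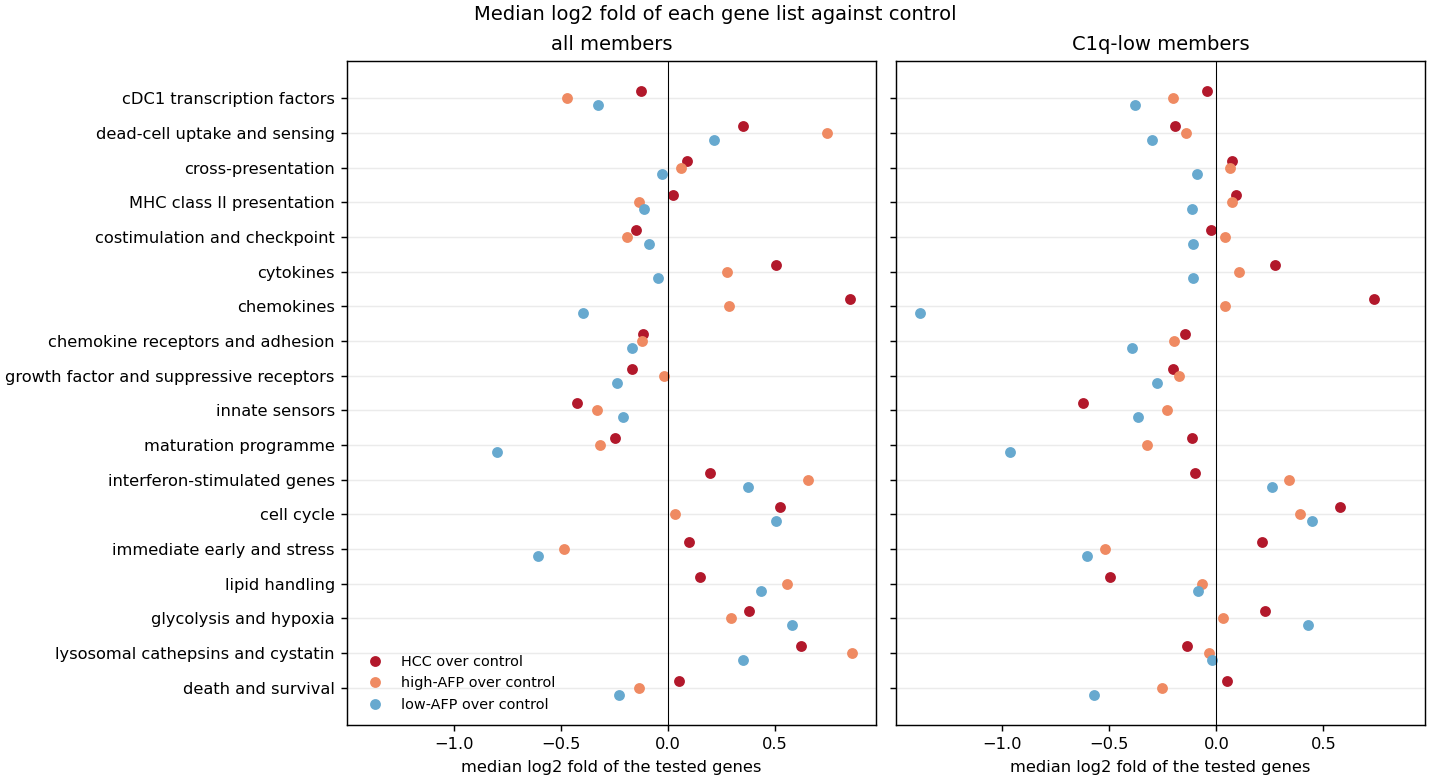
Median log2 fold of the qualifying genes of each list, on CPM with 10 CPM added, for HCC, high-AFP and low-AFP over control, in all members (left) and in C1q-low members (right). The lysosomal list lies at 0.86 for high-AFP over control in all members and at -0.04 in C1q-low members, while the cell cycle list lies right of 0 in C1q-low members for all 3 comparisons.

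Egr1 and Egr3 were lower in all 3 other libraries than in control. Egr1, a zinc finger factor of the immediate early class, which cells switch on within minutes of a stimulus, had 101 CPM (86.4 to 118) in the HCC, 249.9 (219 to 284) in the high-AFP, 304 (274 to 335) in the low-AFP and 697 (639 to 758) in the control C1q-low members. Its log2 fold over control was -2.67 in the HCC, -1.44 in the high-AFP and -1.17 in the low-AFP library, and the 4 intervals overlapped only between high-AFP and low-AFP. In the type 2 gate Egr1 had 134 CPM in the HCC, 157 in the high-AFP, 175 in the low-AFP and 190.1 in the control library, with no 2-fold gap. Egr3, a related factor, had 92.7 CPM (78.4 to 109) in the HCC, 62.5 (47.6 to 80.6) in the high-AFP, 112 (94.8 to 132) in the low-AFP and 321 (283 to 364) in the control C1q-low members, so the control library stood above all others. The type 2 gate had 25.1 CPM of Egr3 in the HCC, 16.7 in the high-AFP, 19.7 in the low-AFP and 88.5 in the control library, the same order of control above the rest.

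Fos and Nr4a1 had another order across the libraries. Fos, the partner of JUN in the factor AP-1, had 1346 CPM (1290.4 to 1404) in the HCC, 599 (551 to 651) in the high-AFP, 683 (638 to 729.8) in the low-AFP and 884 (819.5 to 952) in the control library, the HCC library being highest. Nr4a1, an orphan nuclear receptor of the same class, had 173 CPM in the HCC, 50.8 in the high-AFP, 58.5 in the low-AFP and 115 in the control library. Of 20 qualifying immediate early and stress genes, 1 was higher and 1 lower between HCC and control, 1 higher and 5 lower between high-AFP and control, 0 higher and 3 lower between low-AFP and control, and 5 higher and 1 lower between HCC and high-AFP. Their median log2 fold was 0.21 for HCC, -0.52 for high-AFP and -0.60 for low-AFP over control, against 0.03, -0.00 and 0.00 over all qualifying genes in that order. Between HCC and control 0.979% of all 2657 qualifying genes were higher and 4.52% lower. Between high-AFP and control these shares were 0.565% and 1.17%, and between low-AFP and control 1.81% and 1.73%. Between HCC and high-AFP they were 1.13% and 4.14%.

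Hspa1a, which encodes the heat shock chaperone HSP70, had 165 CPM (146 to 187) in the HCC, 33.9 (23.2 to 47.8) in the high-AFP, 15.6 (9.54 to 24.1) in the low-AFP and 5.10 (1.39 to 13.1) in the control C1q-low members. The HCC interval lay above the other 3, and its log2 fold was 3.54 over control and 2.00 over high-AFP. The type 2 gate gave a like series of 187 CPM in the HCC, 34.4 in the high-AFP, 7.16 in the low-AFP and 3.28 in the control library. Gadd45b, a stress gene of the same response class, had 206 CPM in the HCC, 51.9 in the high-AFP, 28.1 in the low-AFP and 105 in the control library, and Ier3 had 100.1, 18.005, 42.2 and 68.9 CPM in that order.

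Several named genes were low in the high-AFP and low-AFP libraries and near the control level in the HCC library. Bcl2a1b, an inhibitor of apoptosis of the BCL2 family, had 285 CPM (259.9 to 313) in the HCC, 74.1 (57.8 to 93.7) in the high-AFP, 50.7 (39.2 to 64.7) in the low-AFP and 328 (289 to 371) in the control C1q-low members. Its log2 fold over control was -0.19 in the HCC, -2.01 in the high-AFP and -2.48 in the low-AFP library. Bcl2a1a, Bcl2a1b and Bcl2a1d are near-identical copies whose reads the counting could split among them, so that the level of each is uncertain. Bcl2a1d had 360.1 CPM in the HCC, 155 in the high-AFP, 161 in the low-AFP and 307 in the control library. In the type 2 gate Bcl2a1b had 130.05 CPM in the HCC, 186 in the high-AFP, 104 in the low-AFP and 91.8 in the control library, which is another order.

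Traf1, a signalling adaptor of the TNF receptor family, had 171 CPM (151 to 192) in the HCC, 79.4 (62.5 to 99.6) in the high-AFP, 53.1 (41.2 to 67.3) in the low-AFP and 181 (153 to 214) in the control C1q-low members. Cd83, which marks activated dendritic cells, had 255 CPM (231 to 281) in the HCC, 137 (114 to 162) in the high-AFP, 102 (85.5 to 121) in the low-AFP and 306 (269 to 347) in the control library. Pmaip1, the pro-apoptotic BH3 protein NOXA, had 218 CPM (195 to 242) in the HCC, 73.1 (56.9 to 92.5) in the high-AFP, 57.0 (44.7 to 71.6) in the low-AFP and 190.1 (161 to 223) in the control library. For each of these 3 genes the HCC and control intervals overlapped and lay above those of the high-AFP and low-AFP libraries. Their log2 folds over control were -1.10, -1.11 and -1.27 in the high-AFP library and -1.60, -1.49 and -1.58 in the low-AFP library, for Traf1, Cd83 and Pmaip1 in that order. Pmaip1 had a like order in the type 2 gate, at 233 CPM in the HCC, 82.5 in the high-AFP, 60.9 in the low-AFP and 111 in the control library.

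The other named genes that were lower in these 2 libraries kept to the pattern in part. Dennd4a, a regulator of RAB GTPases, had 122 CPM in the HCC, 45.5 in the high-AFP, 34.3 in the low-AFP and 119.9 in the control library. Icam1, the adhesion molecule that holds T cells, had 88.3 CPM in the HCC, 56.1 in the high-AFP, 51.5 in the low-AFP and 137 in the control library. Dusp5, a phosphatase that shuts off ERK, had 77.7 CPM in the HCC, 56.1 in the high-AFP, 31.2 in the low-AFP and 101 in the control library, the low-AFP library being lowest. Cd180, a Toll-like receptor relative, had 186 CPM in the HCC, 135 in the high-AFP, 209 in the low-AFP and 343 in the control library, so that control stood above all 3. Of 8 qualifying genes of the maturation programme, 0 were higher and 3 lower between low-AFP and control (Marcksl1, Traf1 and Ccl22), and 0 higher and 1 lower between high-AFP and control. Of all 2657 qualifying genes, 1.73% were lower between low-AFP and control and 1.17% between high-AFP and control. The sum of 12 mature dendritic cell markers in C1q-low members was 577 CPM in the HCC, 531 in the high-AFP, 259 in the low-AFP and 688 in the control library. The 12 include Ccl5, whose UMIs came almost wholly from a single cell in the high-AFP, low-AFP and control libraries. They also include Ccl22, which came from a single cell in the low-AFP library. Cells that had 3 or more UMIs of Ccr7, Fscn1 and Cacnb3 numbered 8 of 95 in the HCC, 4 of 80 in the high-AFP, 2 of 71 in the low-AFP and 3 of 57 in the control library, too few to separate the shares.

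Promoters of Cxcl9, Bcl2a1b and Dusp5, 3 of the genes named in C1q-low members, are printed because the window holds a letter match to a binding motif. Of the 40 genes named in C1q-low members, 30 matched the RefSeq promoter table (GRCm38.p6, 250 bases before to 50 after each gene's start); coordinates are those of that table, not of the build of the libraries. The motifs searched on both strands were the NF-kB site, the AP-1 site TGANTCA, the GAS site, the cAMP response element, the heat shock element and the CArG box to which serum response factor binds. The windows, at chr5:92328030-92328329 on the minus strand for Cxcl9, chr9:89199023-89199322 on the plus strand for Bcl2a1b and chr19:53528895-53529194 on the plus strand for Dusp5, read 5′ to 3′ with matches in capitals:
Cxcl9: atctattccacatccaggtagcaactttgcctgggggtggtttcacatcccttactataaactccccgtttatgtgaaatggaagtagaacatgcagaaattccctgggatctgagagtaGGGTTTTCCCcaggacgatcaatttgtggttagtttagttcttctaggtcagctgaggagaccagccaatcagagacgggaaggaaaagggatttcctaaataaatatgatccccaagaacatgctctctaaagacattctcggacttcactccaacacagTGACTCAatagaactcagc
Bcl2a1b: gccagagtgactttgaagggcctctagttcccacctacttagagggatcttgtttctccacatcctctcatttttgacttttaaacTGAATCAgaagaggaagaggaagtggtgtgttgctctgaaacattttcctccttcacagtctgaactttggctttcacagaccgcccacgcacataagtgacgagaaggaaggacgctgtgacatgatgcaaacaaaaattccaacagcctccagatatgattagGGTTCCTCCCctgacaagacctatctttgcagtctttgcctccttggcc
Dusp5: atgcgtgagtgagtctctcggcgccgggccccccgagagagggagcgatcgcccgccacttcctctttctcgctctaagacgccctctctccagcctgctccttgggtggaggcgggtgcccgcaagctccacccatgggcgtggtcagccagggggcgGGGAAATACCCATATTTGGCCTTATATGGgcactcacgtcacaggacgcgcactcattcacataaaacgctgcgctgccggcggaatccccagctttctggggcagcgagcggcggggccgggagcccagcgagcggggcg
In Cxcl9 and Bcl2a1b the longer run is 1 NF-kB match and the shorter run 1 AP-1 match. In Dusp5 the single run joins 1 NF-kB match and 2 CArG boxes that touch or overlap. An NF-kB match occurs in 20.5% of all 27025 promoters of the table, an AP-1 match in 7.93%, a GAS match in 8.47%, a cAMP response element in 1.88%, a heat shock element in 0.529% and a CArG box in 1.57%. Of the 30 matched genes, 10 held an NF-kB match, 5 an AP-1 match, 2 a GAS match, 1 a CArG box and 0 either of the others. The genes with an AP-1 match include the near-identical copies Bcl2a1a, Bcl2a1b and Bcl2a1d, which share the same stretch and are not independent. A match of letters describes the window and shows neither binding nor control.

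Chemokines and cytokines rested on few cells. Cxcl9, the interferon-induced chemokine of CXCR3-bearing T cells, had 425 CPM (394 to 459) in the HCC, 147 (124 to 174) in the high-AFP, 17.95 (11.4 to 26.9) in the low-AFP and 93.1 (73.0 to 117) in the control C1q-low members. The 4 intervals did not overlap, but the single cell with most UMIs held 38.8% of them in the high-AFP, 34.8% in the low-AFP and 35.6% in the control library, and a smaller share in the HCC library. The log2 fold of Cxcl9 for HCC over control, 2.08 in C1q-low members and 1.54 in all members, was 0.81 in all members without those that had cell cycle transcripts. Il12b, the subunit of interleukin 12, was detected in 9 cells of the HCC, 2 of the high-AFP, 2 of the low-AFP and 4 of the control library, with levels of 146, 28.6, 10.1 and 62.5 CPM in that order. The type 2 gates had 0, 0.982, 0 and 0 CPM. Of 6 qualifying chemokines, 2 were higher and 0 lower between HCC and control (Cxcl9 and Ccl4). Between high-AFP and control 1 was higher (Cxcl10) and 1 lower (Ccl4), and between low-AFP and control 1 was higher (Cxcl10) and 4 lower. Over all 2657 qualifying genes, 0.979% were higher and 4.52% lower between HCC and control. These shares were 0.565% and 1.17% between high-AFP and control, and 1.81% and 1.73% between low-AFP and control. Cxcl10 had 90.5% of its UMIs in 1 cell of the high-AFP and 64.5% in 1 cell of the low-AFP library. Of the 4 lower ones (Cxcl9, Cxcl16, Ccl5 and Ccl22), Ccl5 had 96.2% of its UMIs in 1 cell of the high-AFP, 91.9% in 1 cell of the low-AFP and 96.2% in 1 cell of the control library, and Ccl22 came from 1 cell in the low-AFP library. Il1b, an inflammatory cytokine, had 239 CPM in the HCC, 77.3 in the high-AFP, 56.2 in the low-AFP and 56.1 in the control C1q-low members, against 913, 211, 602 and 265 CPM in their type 2 gates.

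Cells with cell cycle transcripts, those with 2 or more UMIs of Mki67, Top2a, Cdk1, Birc5 and Ube2c, made up 36.8% (27.2 to 47.4) of C1q-low members in the HCC, 26.2% (17.0 to 37.3) in the high-AFP, 31.0% (20.5 to 43.1) in the low-AFP and 21.1% (11.4 to 33.9) in the control library. After each cell was thinned to 2000 UMIs the shares were 18.1% (10.9 to 27.4) in the HCC, 17.5% (9.91 to 27.6) in the high-AFP, 18.3% (10.1 to 29.3) in the low-AFP and 10.5% (3.96 to 21.5) in the control library, with 1 HCC cell left out as too shallow. All intervals overlapped at either depth. Of 17 qualifying cell cycle genes in C1q-low members, 3 were higher and 0 lower between HCC and control (Top2a, Cdk1 and Cdca8), 1 and 0 between high-AFP and control, and 2 and 0 between low-AFP and control (Rrm2 and Cdk1). Their median log2 fold was 0.58 for HCC, 0.39 for high-AFP and 0.45 for low-AFP over control, against 0.03, -0.00 and 0.00 over all qualifying genes. Of all 2657 qualifying genes, 0.979% were higher for HCC, 0.565% for high-AFP and 1.81% for low-AFP over control.

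Among the named genes of this kind were replication histones and replication factors. Hist1h1b, a linker histone made in S phase, had 159 CPM (140.3 to 180.0) in the HCC, 64.6 (49.4 to 83.0) in the high-AFP, 122 (103 to 142) in the low-AFP and 15.3 (7.91 to 26.7) in the control C1q-low members. The control interval lay below the other 3, from 3 of 57 cells with a UMI in the control library. Cdk1, the mitotic kinase, had 110.1 CPM in the HCC, 67.8 in the high-AFP, 79.6 in the low-AFP and 29.3 in the control library. The log2 fold of Hist1h1b over control in all members, 2.67 in the HCC and 2.32 in the low-AFP library, was 0.24 and 0.69 after members with cell cycle transcripts were set aside. Those members were chosen by cell cycle genes, so a lower level of such genes without them is partly set by the choice. In the type 2 gate Hist1h1b had 63.5 CPM in the HCC, 46.1 in the high-AFP, 10.7 in the low-AFP and 59.0 in the control library, so that control was not low there.

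Gpr171 was higher, and Id3 and Cd34 were lower, in the HCC library than in the other 3. Gpr171, a G protein-coupled receptor, had 195 CPM (174 to 218) in the HCC, 56.1 (42.0 to 73.4) in the high-AFP, 78.8 (64.2 to 95.8) in the low-AFP and 76.5 (58.4 to 98.5) in the control C1q-low members. Their type 2 gates had 24.7, 9.82, 7.16 and 9.83 CPM in that order. Id3, an inhibitor of basic helix-loop-helix factors, had 124 CPM (108 to 143) in the HCC, 346 (309.8 to 386) in the high-AFP, 435 (399 to 472) in the low-AFP and 457 (411 to 507) in the control library. Cd34, a sialomucin better known from blood progenitors and vessels, had 18.04 CPM (12.1 to 25.9) in the HCC, 59.3 (44.8 to 77.0) in the high-AFP, 82.7 (67.7 to 100.1) in the low-AFP and 81.6 (62.9 to 104) in the control library. For all 3 genes the HCC interval was clear of the other libraries, which the naming rule required in the comparison that named each gene. The log2 fold of HCC over control was 1.25 for Gpr171, -1.80 for Id3 and -1.71 for Cd34.

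The type 2 gate of the HCC library was also low in Id3, at 74.4 CPM, against 402 in the high-AFP, 586 in the low-AFP and 770.2 in the control library, and in Cd34, at 8.23 CPM, against 55.0, 91.3 and 52.4 CPM in that order. Endothelial cells express both genes. The sum of 7 endothelial markers in C1q-low members was 213 CPM in the HCC, 503 in the high-AFP, 187 in the low-AFP and 448 in the control library. Of the 7, 4 were at 0 in the HCC library and 0 in the others. Its part in both genes was not tested. 3 further genes were lower in the HCC than in the control C1q-low members. Qpct, an enzyme that modifies the first residue of peptides, had 21.8 CPM in the HCC, 40.2 in the high-AFP, 57.8 in the low-AFP and 84.2 in the control library. Treml4, a receptor for dead cells, had 32.3 CPM in the HCC, 46.6 in the high-AFP, 62.4 in the low-AFP and 81.6 in the control library. Txndc16, a thioredoxin-domain protein, had 47.3 CPM in the HCC, 67.8 in the high-AFP, 103 in the low-AFP and 126 in the control library.

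**Figure D5:**
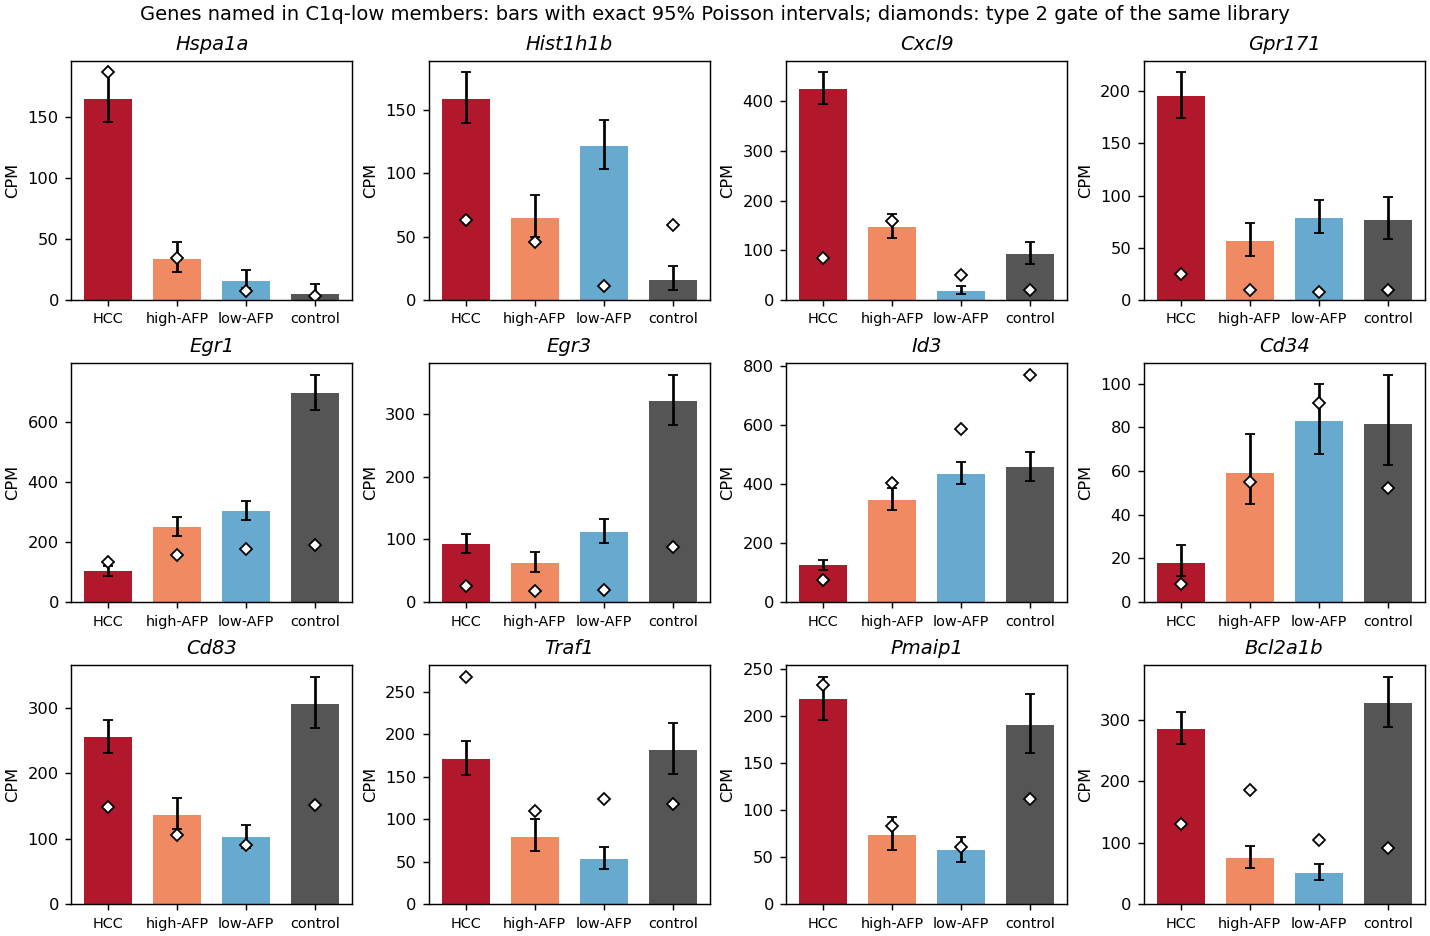
Level in CPM of 12 of the 40 genes named in C1q-low members, for the HCC, high-AFP, low-AFP and control libraries (bars from 0, with exact 95% Poisson intervals) and for the type 2 gate of the same library (diamonds). Hspa1a and Gpr171 are highest in the HCC bar, Egr1 and Egr3 in the control bar, and Cd83, Traf1, Pmaip1 and Bcl2a1b are low in the high-AFP and low-AFP bars.

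Of 14 qualifying genes of lipid handling in C1q-low members, 0 were higher and 4 lower between HCC and control (Fabp4, Apoe, Scd1 and Fasn), and 4.52% of all qualifying genes were lower in that comparison. Scd1, a fatty acid desaturase that hepatocytes make in bulk, had 23.6 CPM in the HCC, 565 in the high-AFP, 503 in the low-AFP and 739 in the control C1q-low members. The hepatocyte marker sum was likewise lowest in the HCC library, and its part in these genes was not tested. Of 11 qualifying genes of glycolysis, none was 2-fold apart in C1q-low members in any of the 5 comparisons. From 0.376% to 4.52% of all qualifying genes were called in each direction of a comparison, so a list this short could hold none. Ldha, lactate dehydrogenase, had 440.3 CPM in the HCC, 468 in the high-AFP, 609 in the low-AFP and 333 in the control library.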

How the data were processed

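The deposited files hold raw UMI counts per gene and barcode, 1 matrix for each library, made by the authors with Cell Ranger 3.0.2, per the file headers. The submitters' processing notes also name R 3.0, Seurat 3 and the genome build mm9; the labels' protocols name a 10x 3′ kit and Illumina sequencing. Libraries were read with Python 3.11.15, numpy 2.4.6, scipy 1.17.1 and pandas 2.3.3, and doublets were scored with Scrublet in scanpy 1.11.5.

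Counts of member barcodes were summed per library and divided by their nuclear-encoded UMIs. Levels carry exact Poisson and shares exact Clopper-Pearson 95% intervals, which cover counting error only. The Poisson intervals treat pooled UMIs as independent and leave out differences between cells. With 1 library a group no test was made. The fold calculation was tested on simulated data. Members and gene lists were chosen with earlier results of these data known.

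Named genes were, for each comparison, up to 10 higher and 10 lower genes at least 2-fold apart with intervals that did not overlap, at least 20 UMIs in the higher library, no cell with over 25% of those UMIs, and a member level at least that of all other kept barcodes there. The naming passed over mitochondrial and ribosomal genes, haemoglobins, antigen receptors, Xist, Y-linked genes and gene models without a name. List members were named by size of fold, and the type 1 markers as description. Tap1, Psmb8, H2-Aa, Id2, Fos, Nr4a1 and Ldha were chosen after their values were seen. Alternatives varied the cell rule, mitochondrial limit, depth, weighting, pseudocount and gene minimum.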

Additional observations from a re-analysis of the deposited data

How the results depend on the processing

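No paired analysis was possible because each group is 1 library, so no replicate was left out either. The C1q-low members, the C1q limit on both gates and the removal of barcodes with the highest Scrublet scores were chosen after seeing the data. Of the recomputed log2 folds of named genes, 2099 stayed within the counting error of the main fold, 251 moved beyond it and 30 that were at least 2-fold apart changed sign. Sign changes of smaller folds were not counted apart. The settings that change only the gene minimum leave each fold as it was by construction. So does the removal of Scrublet doublets, which held 0 members. Each of these settings gave 119 of the 2099. The cause of each change was not tested, except that thinning, other minimums and smaller sets of cells change the counts and genes compared by construction. Setting aside members by C1q or cell cycle UMIs also lowers the genes used for that choice, such as C1qb, by construction. Depth limits rare states and single-cell genes: members numbered 68 to 143 a library, and at 2000 UMIs a barcode the low-AFP share of kept barcodes was no longer above that of control.

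Genes 2-fold apart in all members numbered 187 for HCC over control, 141 for high-AFP over control, 99 for low-AFP over control, 140 for HCC over high-AFP and 49 for high-AFP over low-AFP. With a limit of 15% mitochondrial UMIs, members were 2.15% in the high-AFP, 2.38% in the low-AFP and 1.77% in the control library, of kept barcodes. With at least 3 receptor UMIs, members were 1.15% in the HCC, 1.11% in the high-AFP and 1.46% in the low-AFP library, of kept barcodes, and they were 31.9% in the HCC and 47.2% in the high-AFP library, of members and type 2 gate together. With at least 3 receptor UMIs, the genes 2-fold apart numbered 86 for high-AFP over control. With at least 1 UMI of each receptor, members were 1.01% in the HCC, 0.967% in the high-AFP and 1.36% in the low-AFP library, of kept barcodes, and they were 29.2% in the HCC and 43.9% in the high-AFP library, of members and type 2 gate together. With at least 1 UMI of each receptor, the genes 2-fold apart numbered 74 for high-AFP over control and 86 for high-AFP over low-AFP. With at least 1 UMI of each receptor, log2 folds changed sign to -0.028 for the chemokines median, -0.29 for the lysosomal cathepsins and cystatin median, -1.27 for Ctsd, -0.051 for Hmox1, -0.46 for Cd207, -2.01 for Vcam1, -1.82 for C1qb and -2.81 for Cd5l in HCC over control, and to -0.044 for Cd72, -0.24 for Capg and -0.69 for Lpl in low-AFP over control. Without members holding C1q, T cell, NK cell or endothelial UMIs, members were 1.00% in the HCC, 0.849% in the high-AFP, 1.21% in the low-AFP and 0.802% in the control library, of kept barcodes, and they were 29.0% in the HCC, 40.7% in the high-AFP and 55.6% in the low-AFP library, of members and type 2 gate together. Without members holding C1q, T cell, NK cell or endothelial UMIs, the genes 2-fold apart numbered 50 for high-AFP over control. Without members holding C1q, T cell, NK cell or endothelial UMIs, log2 folds changed sign to -0.11 for the lysosomal cathepsins and cystatin median, -0.13 for Cd207, -0.28 for Vcam1, -0.30 for C1qb and -0.27 for Cd5l in HCC over control, and to -0.13 for the dead-cell uptake and sensing median, -0.13 for the lipid handling median, -0.080 for the lysosomal cathepsins and cystatin median and -0.034 for Ctsd in high-AFP over control, and to -0.66 for Capg, -0.36 for C1qb and -0.071 for Lpl in low-AFP over control, and to 0.38 for Trem2 in HCC over high-AFP, and to -0.44 for Vcam1 in high-AFP over low-AFP. Without members with cell cycle transcripts, members were 0.962% in the HCC, 1.31% in the high-AFP and 1.32% in the low-AFP library, of kept barcodes, and they were 28.2% in the HCC library, of members and type 2 gate together. Without members with cell cycle transcripts, the genes 2-fold apart numbered 168 for low-AFP over control and 78 for high-AFP over low-AFP. Without members with cell cycle transcripts, log2 folds changed sign to -0.33 for the cell cycle median in HCC over control, and to -0.046 for the cell cycle median in low-AFP over control, and to -0.31 for Hist1h1b in HCC over high-AFP. Both medians rested on 3 qualifying genes, and the list holds the genes by which those members were set aside. C1q-low members were 1.19% in the HCC, 0.944% in the high-AFP and 1.32% in the low-AFP library, of kept barcodes, and they were 32.6% in the HCC and 43.2% in the high-AFP library, of members and type 2 gate together. In C1q-low members, the genes 2-fold apart numbered 46 for high-AFP over control. In C1q-low members, log2 folds changed sign to -0.14 for the lysosomal cathepsins and cystatin median, -0.11 for Ctsd, -0.17 for Cd207, -0.32 for Vcam1 and -0.19 for Cd5l in HCC over control, and to -0.14 for the dead-cell uptake and sensing median, -0.069 for the lipid handling median and -0.035 for the lysosomal cathepsins and cystatin median in high-AFP over control, and to -0.62 for Capg, -0.18 for C1qb and -0.065 for Lpl in low-AFP over control, and to 0.18 for Trem2 in HCC over high-AFP, and to -0.29 for Slc40a1 and 0.037 for Vsig4 in high-AFP over low-AFP. With barcodes thinned to 2000 UMIs, members were 0.624% in the HCC, 0.716% in the high-AFP, 0.595% in the low-AFP and 0.618% in the control library, of kept barcodes, and they were 47.7% in the high-AFP and 52.8% in the low-AFP library, of members and type 2 gate together. At that depth cells with cell cycle transcripts were 16.7% in the HCC, 12.6% in the high-AFP, 16.2% in the low-AFP and 8.82% in the control library, and mature cells 1.67% in the HCC, 1.40% in the high-AFP and 1.01% in the low-AFP library, of members. With the C1q limit on members and type 2 barcodes alike, members were 46.5% in the high-AFP library, of members and type 2 gate together. With 50 CPM added, the genes 2-fold apart numbered 110 for HCC over control, 60 for high-AFP over control, 46 for low-AFP over control and 20 for high-AFP over low-AFP. With a minimum mean of 20 CPM, the genes 2-fold apart numbered 354 for HCC over control, 213 for high-AFP over control, 166 for low-AFP over control, 278 for HCC over high-AFP and 81 for high-AFP over low-AFP. With no minimum but 20 UMIs, the genes 2-fold apart numbered 636 for HCC over control, 304 for high-AFP over control, 267 for low-AFP over control, 480 for HCC over high-AFP and 126 for high-AFP over low-AFP. With each cell weighing the same, the genes 2-fold apart numbered 26 for high-AFP over low-AFP. With each member thinned to 2000 UMIs, the genes 2-fold apart numbered 326 for HCC over control, 263 for high-AFP over control, 294 for low-AFP over control, 213 for HCC over high-AFP and 125 for high-AFP over low-AFP. With each member thinned to 2000 UMIs, log2 folds changed sign to -0.019 for the chemokines median in HCC over control.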
